A study of Mus musculus with 4 samples.

Results

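Genes of macrophages and other phagocytes were followed in RNA of sorted mouse round spermatids, the haploid germ cells that follow meiosis. The 10 genes encode the chains of complement C1q (C1qa, C1qb, C1qc), signalling adaptors of immune receptors (Tyrobp, Fcer1g), receptors and glycoproteins of the macrophage surface and endosomes (Csf1r, Mrc1, Cd68) and the membrane chains of the phagocyte oxidase (Cybb, Cyba). The members were chosen by name from the 25965 genes of the deposited table, and all 10 were found there. They were picked with earlier results of the same comparison in view, so their differences between the groups are described here without a test. Per the labels, the cells came from testis of the outbred ICR strain. Of the 4 libraries, 2 are labelled homozygous for an altered Wfdc15a allele (Wfdc15a-/-, called knockout below) and 2 heterozygous (Wfdc15a+/-, the controls), so every library carries at least 1 altered allele. The libraries were made with Smart-seq2, a full-length method for small amounts of RNA that keeps neither strand nor molecular identifiers. No age, gate of the sort, or animal per library is stated in the labels, so the spread between replicates may be technical. In bulk samples, fewer cells of a type and less RNA per cell cannot be told apart.

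C1q is the recognition part of the first complement complex. Its chains, A, B and C, assemble into a bundle that binds antibodies and dying cells and starts the classical pathway, and tissue macrophages are a main source of it. Macrophages of the testis lie mostly in the interstitium beside Leydig cells and around the tubules, outside the epithelium in which spermatids develop. They depend on the receptor encoded by Csf1r, whose ligands are CSF1 and IL-34, and they signal through adaptors with an ITAM, a tyrosine motif that recruits the kinase SYK. The phagocyte oxidase makes superoxide from oxygen. Its catalytic chain, encoded by Cybb, needs the smaller chain encoded by Cyba to be stable.

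The libraries differed in depth. The totals recovered from the steps of the deposited values were 21160061 and 11268909 reads in knockout libraries 1 and 2, and 5774112 and 33853604 reads in heterozygous libraries 1 and 2. Values are RPM, the deposited reads scaled to the library total, and 1 read was worth 0.0473 and 0.0887 RPM in the knockout libraries and 0.173 and 0.0295 RPM in the heterozygous libraries. A count of 0 allows up to 3 reads, which is 0.142 and 0.266 RPM in the knockout libraries and 0.520 and 0.0886 RPM in the heterozygous libraries. Such limits and the intervals below cover counting error only. Both would be wider if the mates of a read pair were counted separately. The targeted gene, Wfdc15a, was read in every library, at 82.6 and 59.5 RPM in the knockout libraries and at 121 and 85.2 RPM in the heterozygous libraries (log2 difference -0.53, SE 0.29, limma adjusted p = 0.647). The labels do not state which part of the gene was altered, so this value does not check the genotype, and knockout below means labelled so. Round spermatid genes were read in all libraries, and their values stand with the other marker lists.

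Promoter sequences are shown for 5 of the genes. Those of C1qb and C1qc are shown because the C1q chain genes stand side by side in the genome and were read together. Cyba is shown as a gene that did not separate the groups. Mrc1 and Cd68 are also shown, and Fcer1g and Cybb are not. The sequences come from RefSeq for the GRCm38.p6 build (mm10), 250 bases before to 50 bases from the annotated start on. Of the 10 genes, 7 had one to show. C1qa, Tyrobp and Csf1r are named only. Capitals mark GAGGAA or its reverse complement TTCCTC, a core motif of PU.1, the transcription factor that directs myeloid development.
C1qb, chr4:136886151-136886450, minus strand: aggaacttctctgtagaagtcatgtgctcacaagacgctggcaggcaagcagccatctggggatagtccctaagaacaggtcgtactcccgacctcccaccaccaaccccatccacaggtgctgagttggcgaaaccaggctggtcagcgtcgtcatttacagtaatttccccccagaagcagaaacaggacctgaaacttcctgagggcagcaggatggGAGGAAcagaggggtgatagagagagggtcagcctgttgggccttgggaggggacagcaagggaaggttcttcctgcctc
C1qc, chr4:136892865-136893164, minus strand: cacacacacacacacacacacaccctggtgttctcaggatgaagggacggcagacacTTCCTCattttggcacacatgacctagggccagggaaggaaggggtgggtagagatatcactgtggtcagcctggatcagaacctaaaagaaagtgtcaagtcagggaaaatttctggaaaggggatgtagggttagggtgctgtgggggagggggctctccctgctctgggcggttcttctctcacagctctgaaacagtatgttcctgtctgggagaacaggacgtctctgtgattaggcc
Mrc1, chr2:14229164-14229463, plus strand: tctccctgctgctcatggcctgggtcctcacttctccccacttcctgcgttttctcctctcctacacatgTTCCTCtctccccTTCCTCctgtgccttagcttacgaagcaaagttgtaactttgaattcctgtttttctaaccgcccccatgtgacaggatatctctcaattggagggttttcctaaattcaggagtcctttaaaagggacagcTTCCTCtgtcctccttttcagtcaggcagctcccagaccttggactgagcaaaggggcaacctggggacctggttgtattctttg
Cd68, chr11:69666121-69666420, minus strand: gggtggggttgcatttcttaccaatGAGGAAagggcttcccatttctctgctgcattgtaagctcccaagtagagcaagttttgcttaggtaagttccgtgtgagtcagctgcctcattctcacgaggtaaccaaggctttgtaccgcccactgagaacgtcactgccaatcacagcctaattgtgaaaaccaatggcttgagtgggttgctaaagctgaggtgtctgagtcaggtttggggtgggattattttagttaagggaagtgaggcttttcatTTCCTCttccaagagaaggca
Cyba, chr8:122432891-122433190, minus strand: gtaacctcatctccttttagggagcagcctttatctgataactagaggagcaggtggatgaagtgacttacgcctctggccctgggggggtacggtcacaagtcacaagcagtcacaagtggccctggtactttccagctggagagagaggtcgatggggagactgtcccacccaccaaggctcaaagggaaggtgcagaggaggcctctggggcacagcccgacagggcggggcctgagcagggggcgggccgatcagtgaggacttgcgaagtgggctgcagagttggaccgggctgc

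The PU.1 core was found on either strand in 5 of the 7 promoters, and in 28.3% of 32851 RefSeq promoters of 300 bases. It occurred 3 times in the Mrc1 promoter, 2 times in that of Cd68, and 0 times in those of Fcer1g and Cyba. The AP-1 motif TGAGTCA, read on both strands, was in 1 of the 7, that of Cd68, and in 5.20% of all promoters. The TATA box TATAAA was in 0 of the 7 and in 13.6% of all. A match is a description of these letters and not a site of binding. The RefSeq starts lay 13 bases from the start in the deposited table for C1qb, 151 bases for C1qc and 18447 bases for Cybb, whose deposited gene begins further upstream.

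The C1q genes were read in both knockout libraries, against 4 reads in all in heterozygous library 1 and mainly C1qb in heterozygous library 2. C1qa, for chain A (chromosome 4, 136895917 to 136898803, minus strand), had 155 and 34 reads in the knockout libraries, against 0 and 13 reads in the heterozygous libraries. This is 7.33 and 3.02 RPM in knockout libraries against 0 and 0.384 RPM in heterozygous libraries, and the groups did not overlap. The mean was 5.17 ± 3.05 RPM in knockout and 0.192 ± 0.272 RPM in heterozygous libraries (SD, n = 2 each), a ratio of 26.9.

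C1qb, for chain B (136880129 to 136886187), was the highest of the C1q genes. It was at 12.2 and 6.74 RPM in knockout libraries, from 258 and 76 reads, against 0.693 and 2.39 RPM in heterozygous libraries, from 4 and 81 reads. The groups did not overlap, the ratio of the means was 6.14, and heterozygous library 2, the deepest, held most of the C1q reads of its group. C1qc, for chain C (136889804 to 136893065), lies between the others. It had 80 and 33 reads in knockout libraries, or 3.78 and 2.93 RPM, against 0 and 2 reads in heterozygous libraries. From pooled reads the ratio of C1qc was 69.0, with an exact binomial 95% interval of 18.7 to 577.

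C1qc is separated from C1qa by 2851 bases and from C1qb by 3616 bases, and no other listed gene lies within 5000 bases of them. Their proportions can be compared per kilobase of exon (RPKM, with the exon lengths of GENCODE M21). C1qb made up 55.5% and 58.4% of the summed C1q RPKM in the knockout libraries, against 84.6% in heterozygous library 2. C1qa made up 34.9% and 27.3% in the knockout libraries, against 14.2% in heterozygous library 2. C1qc made up 9.69% and 14.3% in the knockout libraries, against 1.18% in heterozygous library 2. Heterozygous library 1 had 4 C1q reads in all, too few for a proportion. Chain B led in the 3 libraries with enough reads, and its part was larger in heterozygous library 2 than in either knockout library.

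Of the adaptors, Tyrobp separated the groups and Fcer1g rested on 1 library. Tyrobp encodes DAP12, the adaptor of TREM2 and other activating receptors (chromosome 7, 30413788 to 30417577, plus strand). It had 197 and 33 reads in knockout libraries, or 9.31 and 2.93 RPM, and 0 reads in both heterozygous libraries. The knockout mean of 6.12 ± 4.51 RPM (SD, n = 2) was 80.8 times 0.0757 RPM, the level of 3 reads in the pooled heterozygous libraries. That level rests mostly on heterozygous library 2, the deepest, and in heterozygous library 1 alone 3 reads are 0.520 RPM. The value of 80.8 is therefore not a lower bound on the ratio of the group means. Should the counting have used each mate separately, the level of 3 reads would be too strict a limit and the fold smaller. Hcst, which encodes the related adaptor DAP10 and ends 139 bases from Tyrobp, had 0 and 2 reads in knockout libraries and 0 reads in both heterozygous libraries.

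Fcer1g encodes the common gamma chain of Fc receptors (chromosome 1, 171229572 to 171234365, minus strand). It had 118 reads in knockout library 1 but 1 read in knockout library 2, against 0 and 3 reads in heterozygous libraries 1 and 2. In RPM this is 5.58 and 0.0887 in knockout libraries, against 0 and 0.0886 in heterozygous libraries, so knockout library 2 was at the level of heterozygous library 2. On the deposited scale, where 0 reads take a level set by depth, the groups overlapped. Without knockout library 1 the log2 difference of Fcer1g was -0.41, and with it 2.58. The exact binomial 95% interval of its level in knockout library 2 was 0.00225 to 0.494 RPM. Tyrobp, from the same library, had 33 reads.

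**Figure D1:**
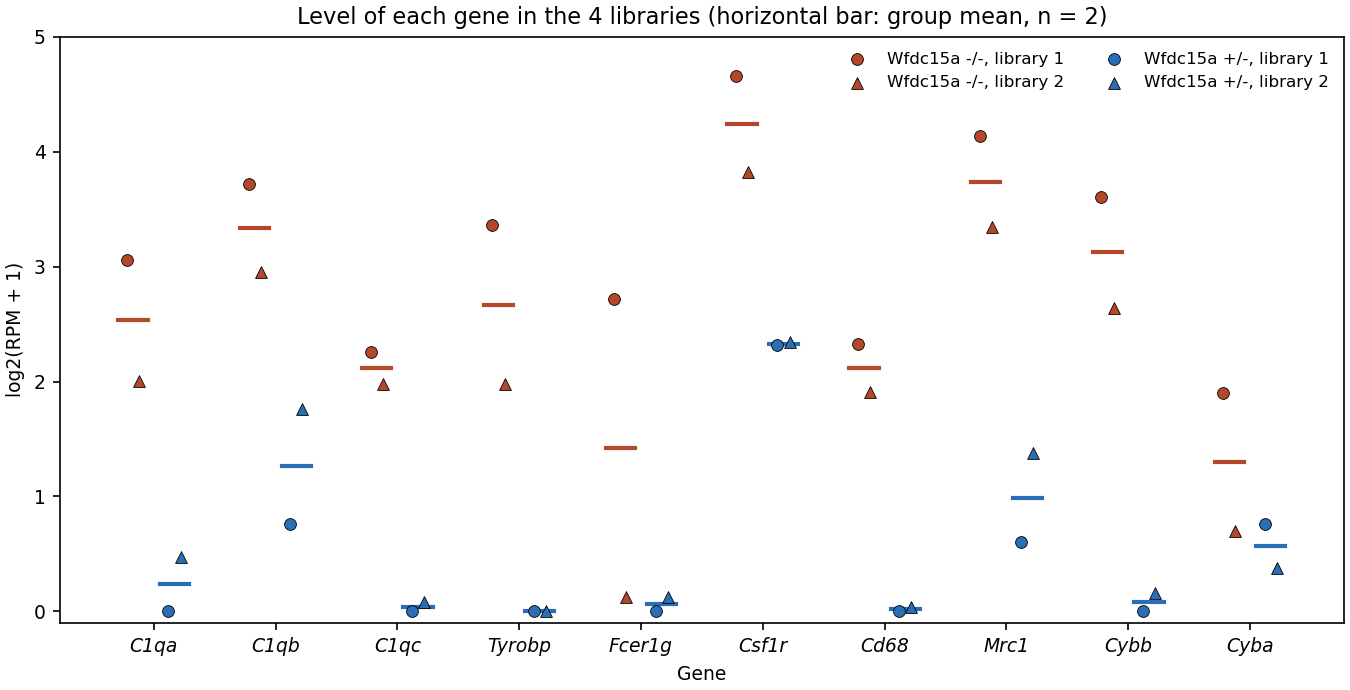
Level of the 10 genes as log2(RPM + 1), with 0 reads at 0, in knockout (left, red) and heterozygous (right, blue) libraries; circles are library 1, triangles library 2 and bars the mean of n = 2. Knockout library 1 is the highest point for every gene, Fcer1g falls to 0.0887 RPM in knockout library 2, and Cyba overlaps between the groups.

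Among the receptors, Csf1r was the 1 gene of the 10 with 1 RPM or more in both heterozygous libraries. It encodes the receptor of CSF1 and IL-34 (chromosome 18, 61105572 to 61132149, plus strand). Csf1r was at 24.2 and 13.1 RPM in knockout libraries, from 513 and 148 reads, against 3.98 and 4.08 RPM in heterozygous libraries, from 23 and 138 reads. The groups did not overlap, the heterozygous libraries lay close together, and the ratio of the means was 4.64. Csf1r shares 871 bases with the 3' part of Hmgxb3, a gene on the other strand, so without strand their reads there cannot be told apart. Hmgxb3 was at 22.5 and 28.7 RPM in knockout libraries and at 41.0 and 35.8 RPM in heterozygous libraries (log2 difference -0.59, SE 0.31, limma adjusted p = 0.638).

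Mrc1 encodes the mannose receptor CD206, a mark of resident macrophages (chromosome 2, 14229414 to 14332057, plus strand). It was at 16.5 and 9.14 RPM in knockout libraries, from 350 and 103 reads, against 0.520 and 1.60 RPM in heterozygous libraries, from 3 and 54 reads. The groups did not overlap, and the ratio of the means was 12.1. Cd68 encodes macrosialin, a glycoprotein of late endosomes related to the LAMP proteins (chromosome 11, 69664213 to 69666153, minus strand). It had 85 and 31 reads in knockout libraries, or 4.02 and 2.75 RPM, against 0 and 1 read in heterozygous libraries. Its pooled ratio was 142, with an exact binomial 95% interval of 24.9 to 5646.

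Cd68 lies 782 bases from Eif4a1 and 1570 bases from Mpdu1, both on the same strand and expressed in all libraries. Eif4a1, a translation initiation helicase gene, was at 89.2 and 87.0 RPM in knockout libraries and at 72.2 and 72.4 RPM in heterozygous libraries. Mpdu1, for a protein of dolichol-linked sugar use, was at 23.1 and 13.3 RPM in knockout libraries and at 19.1 and 21.4 RPM in heterozygous libraries. Both neighbours were read in the heterozygous libraries, where Cd68 had 0 and 1 read.

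The oxidase chains did not follow each other. Cybb, for the catalytic chain gp91phox (chromosome X, 9435252 to 9487771, minus strand), had 237 and 59 reads in knockout libraries, against 0 and 4 reads in heterozygous libraries. In RPM it was 8.22 ± 4.22 in knockout and 0.0591 ± 0.0835 in heterozygous libraries (SD, n = 2 each), a ratio of 139 that rests on 4 heterozygous reads. Cyba, for the chain p22phox (chromosome 8, 122424772 to 122432940, minus strand), had 58 and 7 reads in knockout libraries and 4 and 10 reads in heterozygous libraries. It was at 2.74 and 0.621 RPM in knockout libraries, against 0.693 and 0.295 RPM in heterozygous libraries, and knockout library 2 lay between the heterozygous libraries. Cyba lies wholly within Gm20388, a listed gene of the other strand that spans all its 8169 bases and was at 2986 and 2378 RPM in knockout libraries and 2577 and 2746 RPM in heterozygous libraries. How reads in such overlaps were assigned is not stated, so the value of Cyba is uncertain.

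Across the 10 genes, 8 had both knockout libraries above both heterozygous libraries on the deposited scale. Among the 15888 genes tested (1 RPM or more in at least 2 libraries) this held for 23.5%, and since the members were picked on this comparison nothing is read from that contrast. The exceptions were Fcer1g and Cyba, which were also the 2 members below the filter. With 0 reads taken as 0 RPM the count was 9, through Fcer1g, with 1 read in knockout library 2 against 3 reads in the deeper heterozygous library 2. The median log2 difference of the 10 genes was 4.01, and 0.07 over all tested genes. It ranged among the members from 1.53 for Cyba to 6.34 for Tyrobp. These log2 values depend on the level given to 0 reads, and with log2(RPM + 1) the median was 2.09.

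Within the knockout group the libraries were not alike. Knockout library 1 was above knockout library 2 for 10 of 10 genes, and for 54.6% of all tested genes. The ratio between them was 1.29 for C1qc, 1.46 for Cd68, 1.81 for C1qb and Mrc1, 1.85 for Csf1r, 2.14 for Cybb, 2.43 for C1qa and 3.18 for Tyrobp. It was 4.41 for Cyba and 62.8 for Fcer1g. In the heterozygous libraries 7 of the 10 genes had 3 reads or fewer in library 1, the shallowest, and 4 of 10 in library 2, the deepest. The low values of heterozygous library 2 came with the greatest depth of the series.

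Summed over the 10 genes, the level was 96.9 and 46.6 RPM in the knockout libraries, against 5.89 and 9.04 RPM in the heterozygous libraries. The mean was 71.8 ± 35.6 RPM in knockout and 7.46 ± 2.23 RPM in heterozygous libraries (SD, n = 2 each), a ratio of 9.61. Csf1r supplied the largest part of the heterozygous sums, 3.98 of 5.89 RPM in library 1 and 4.08 of 9.04 RPM in library 2. Without it the sum was 72.7 and 33.5 RPM in knockout libraries, against 1.91 and 4.96 RPM in heterozygous libraries, a ratio of 15.5.

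**Figure D2:**
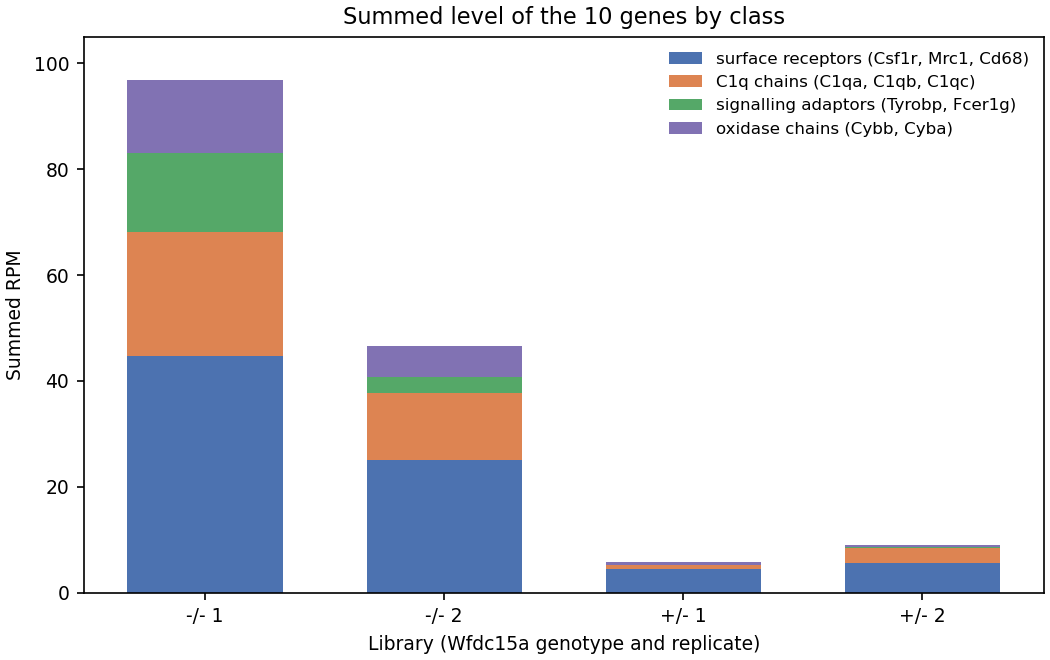
Stacked bars give the summed RPM of the 10 genes in each library, knockout libraries at the left and heterozygous libraries at the right, with colours for the classes of genes. The bars reach 96.9 and 46.6 RPM in knockout libraries and 5.89 and 9.04 RPM in heterozygous libraries, in which the receptors, mainly Csf1r, make up the largest piece.

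Per kilobase of exon, Tyrobp and C1qb had the highest levels in the knockout libraries. Tyrobp averaged 9.17 ± 6.77 RPKM, C1qb 8.70 ± 3.54 and C1qa 4.97 ± 2.93 RPKM (SD, n = 2). Fcer1g followed at 3.24 ± 4.44, Csf1r at 3.24 ± 1.36, Cd68 at 2.69 ± 0.712 and Mrc1 at 2.02 ± 0.821 RPKM. C1qc was at 1.74 ± 0.312, Cyba at 1.62 ± 1.44 and Cybb at 1.41 ± 0.726 RPKM. No gene differed from its neighbour in this order by more than the sum of their SDs. In the heterozygous libraries the order began with C1qb at 1.42 ± 1.10 RPKM, Csf1r at 0.698 ± 0.0114 RPKM and Cyba at 0.476 ± 0.270 RPKM. Gene lengths follow GENCODE M21, since the annotation used for counting is not named.

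The genes whose profile over the 4 libraries was nearest to the mean profile of the 10 were Plek, Il10ra, Erbb2, Timp4, Runx1, Tmem176b, Ctsc, Slc23a2, Ehd4 and Ctsb. Likeness was the root mean square distance between profiles of log2(RPM + 1) centred over the 4 libraries, and it was 0.151 for Plek and 0.234 for Ctsb. The members' own distances to their mean profile ran from 0.130 for C1qa to 0.720 for Cyba. Plek, for pleckstrin of platelets and leukocytes, overlaps Cnrip1 and was at 7.42 and 3.19 RPM in knockout libraries, against 0 and 0.295 RPM in heterozygous libraries. Il10ra, for a chain of the interleukin-10 receptor, was at 4.44 and 1.42 RPM in knockout libraries and had 0 reads in both heterozygous libraries. Erbb2 and Timp4, nearer than Ctsc, are in none of the lists of related genes and markers used below, and both overlap other genes. Erbb2 was at 10.3 and 5.95 RPM in knockout libraries, against 1.21 and 1.15 RPM in heterozygous libraries. Timp4 was at 9.50 and 5.86 RPM in knockout libraries, against 0.866 and 0.945 RPM in heterozygous libraries. Ctsc, for the lysosomal protease cathepsin C, was at 10.3 and 4.79 RPM in knockout libraries, against 0.346 and 0.561 RPM in heterozygous libraries. With 4 libraries such likeness is a description and was picked from all tested genes.

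Lists of related genes were then set beside these values. In limma's test over the 15888 genes, the lowest adjusted p was 0.202 and 0 genes (0%) met the threshold of 0.05. Unadjusted, 0.05 was met by 986 higher genes (6.21%) and 297 lower genes (1.87%), against 842 higher and 441 lower after median-ratio scaling and 672 higher and 483 lower after quantile normalization. With voom on the recovered reads 0 genes passed, with 1584 higher and 377 lower at an unadjusted p under 0.05. The number passing was 442 without heterozygous library 1, 558 without heterozygous library 2 and 5 without knockout library 2, fits in which a lone library is assumed to vary like the other group. Both knockout libraries lay below both heterozygous libraries for 15% of tested genes. No list gene passed as reported, whereas Lyz2, H2-Eb1 and Cd74 of the macrophage markers passed without knockout library 2. The list genes that passed numbered 32 without heterozygous library 1 and 16 without heterozygous library 2. Lists keep genes over the filter, which a gene can reach through 1 group alone.

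Complement genes other than C1q were listed by role. Of 23 components found in the table, 15 were tested, with a median log2 difference of -0.03, 2 above both heterozygous libraries and 2 below. Hc, for complement C5, overlaps Gm13449 and was at 2.84 and 3.28 RPM in knockout libraries, against 0.693 and 0.620 RPM in heterozygous libraries (adjusted p = 0.585, limma). Among 12 receptor genes 7 were tested, with 4 above, 1 below and a median of 0.48, which was 0.21 without heterozygous library 2 and 1.18 without knockout library 2. Itgb2 and Itgam encode the beta and alpha chains of complement receptor 3. Itgb2 was at 3.97 and 5.50 RPM in knockout libraries, against 1.21 and 0.945 RPM in heterozygous libraries (limma adjusted p = 0.542), and Itgam had 49 and 39 reads against 2 and 1. C3ar1, the C3a receptor gene, had 74 and 8 reads in knockout libraries and 0 reads in both heterozygous libraries.

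Of 12 regulators, which protect cells from complement, 9 were tested, with 7 above both heterozygous libraries, 0 below and a median of 1.0007. Cd55, for a factor that speeds the decay of the C3 convertases, overlaps Gm16083 and was at 78.2 and 68.7 RPM in knockout libraries, against 42.1 and 34.7 RPM in heterozygous libraries (log2 difference 0.94, SE 0.28, limma adjusted p = 0.470). Cd46, for a cofactor of C3b cleavage that rodents express mainly in testis, was at 30.8 and 46.8 RPM in knockout libraries, against 18.2 and 16.3 RPM in heterozygous libraries. Cd59b, for an inhibitor of the membrane attack complex, was at 28.8 and 25.8 RPM in knockout libraries, against 12.6 and 13.2 RPM in heterozygous libraries. Cd55, Cd46 and Cd59b were each read at 10 RPM or more in all 4 libraries. The 12 regulators summed to 571 and 593 RPM in knockout libraries and 559 and 480 RPM in heterozygous libraries. Daf2, an older symbol of Cd55b, gave most of each sum. It was at 340 and 392 RPM in knockout libraries and at 454 and 374 RPM in heterozygous libraries, and the groups overlapped.

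Other genes with a C1q domain, outside complement, were mostly low. Of 22 found, 8 were tested, with 0 above both heterozygous libraries, 3 below and a median of -0.24, which was -0.60 without heterozygous library 2 and -0.13 without knockout library 2. Over all 22, without the filter, 2 lay above, Cbln4 and Mmrn2, and 4 below. Cbln4, for a cerebellin, had 12 and 25 reads in knockout libraries, against 0 and 9 reads in heterozygous libraries. Emilin2, for an elastin-associated glycoprotein, was at 2.46 and 0.710 RPM in knockout libraries, against 8.31 and 6.32 RPM in heterozygous libraries (log2 difference -2.46, SE 0.71, limma adjusted p = 0.470). C1qtnf3, for a secreted CTRP protein, was at 20.4 and 24.9 RPM in knockout libraries, against 31.3 and 31.1 RPM in heterozygous libraries.

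The next list held other adaptors, Fc receptors, and receptors that pair with ITAM adaptors. Of its 30 genes 8 were tested, with a median of 0.49, 3 above and 1 below. Fcgr2b, for the inhibitory Fc receptor of IgG, was at 3.64 and 2.48 RPM in knockout libraries, against 0.173 and 0.502 RPM in heterozygous libraries (limma adjusted p = 0.544). Trem2, a partner of Tyrobp, had 4 and 9 reads in knockout libraries and 0 reads in both heterozygous libraries, below the filter. Fcgr3, whose IgG receptor needs the chain of Fcer1g, was at 21.1 and 11.9 RPM in knockout libraries and at 17.7 and 6.26 RPM in heterozygous libraries, and the groups overlapped. Of 17 signalling genes 12 were tested, 8 lay above and 0 below, and the median of 1.38 was 0.89 with log2(RPM + 1). Syk, for the kinase that binds ITAMs, had 65 and 15 reads in knockout libraries, against 2 and 1 reads in heterozygous libraries (limma adjusted p = 0.596). Lyn, a Src-family kinase gene, was at 6.14 and 4.97 RPM in knockout libraries, against 1.56 and 0.354 RPM in heterozygous libraries (limma adjusted p = 0.470).

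The ligands of CSF1R did not separate the groups. Csf1 was at 0.756 and 2.13 RPM in knockout libraries and at 3.46 and 0.207 RPM in heterozygous libraries, and Il34 at 0.898 and 1.51 RPM in knockout libraries and 1.73 and 1.36 RPM in heterozygous libraries. In the list of ligands, related receptors and lineage factors, 15 of 23 were tested, 4 lay above and 0 below, and the median was 0.58. That median was 0.14 without heterozygous library 2, 1.52 without heterozygous library 1 and 0.20 with log2(RPM + 1). Runx1, for a factor of blood cell development, was at 9.78 and 5.68 RPM in knockout libraries, against 1.21 and 1.48 RPM in heterozygous libraries (log2 difference 2.48, SE 0.61, limma adjusted p = 0.360). Spi1, which encodes PU.1 and is listed as Sfpi1, was at 1.04 and 1.51 RPM in knockout libraries, against 0.693 and 0.384 RPM in heterozygous libraries.

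Oxidase genes were mixed, and the cytosolic subunits that activate the enzyme were low. Of 21 genes found, 13 were tested, with 3 above and 4 below, and a median of -0.01 that was 0.0008 after quantile normalization. Ncf4, for p40phox, was at 3.07 and 1.07 RPM in knockout libraries, against 0 and 0.207 RPM in heterozygous libraries (limma adjusted p = 0.596). Ncf1, for p47phox, had 33 and 0 reads in knockout libraries and 2 and 9 reads in heterozygous libraries. Rac2, for a GTPase of the active complex, was at 5.58 and 3.55 RPM in knockout libraries, against 5.89 and 8.57 RPM in heterozygous libraries.

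Scavenger and lectin receptors, the kin of Mrc1 and Cd68, formed another list. Of 30, 21 were tested, and 10 lay above and 1 below, where the shares over all tested genes were 23.5% and 15%. The median of 0.71 was 0.27 without heterozygous library 1 and 1.22 without knockout library 2. Stab1, for a scavenger receptor of macrophages and endothelium, overlaps Nt5dc2 and was at 6.99 and 4.35 RPM in knockout libraries, against 1.04 and 1.24 RPM in heterozygous libraries (log2 difference 2.28, SE 0.66, limma adjusted p = 0.470). Cd14, for the coreceptor of lipopolysaccharide, had 109 and 15 reads in knockout libraries, against 2 and 1 reads in heterozygous libraries. Clec4n, for dectin-2, which signals through the chain of Fcer1g, was at 3.12 and 1.24 RPM in knockout libraries and had 0 reads in both heterozygous libraries. Lamp2, a lysosomal membrane gene read in all libraries, was at 71.8 and 41.8 RPM in knockout libraries, against 29.8 and 31.9 RPM in heterozygous libraries. Msr1, for the class A scavenger receptor, was at 37.5 and 45.1 RPM in knockout libraries and at 35.0 and 41.6 RPM in heterozygous libraries, and the groups overlapped.

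**Figure D3:**
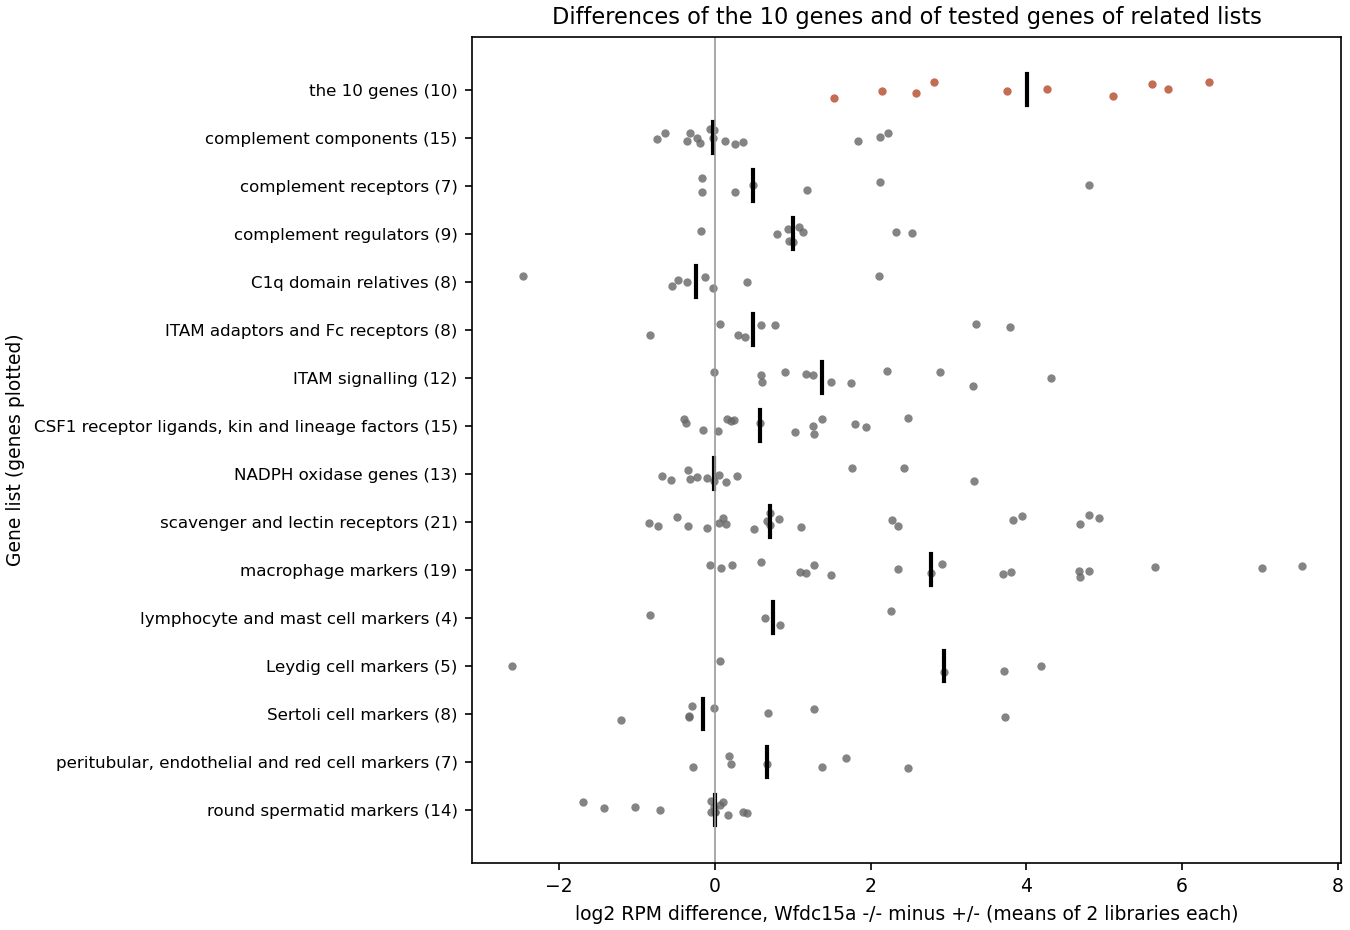
Each point is the log2 RPM difference of a gene, knockout minus heterozygous, for the 10 genes (top, red) and for the tested genes of each list (grey), with the number plotted in brackets and the median as a black bar. The medians are 4.01 for the 10 genes, 2.78 for macrophage markers, 1.38 for ITAM signalling, -0.24 for C1q domain relatives and -0.01 for oxidase genes.

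Marker lists of cell types gave further values for the same libraries. Of 20 other macrophage markers 19 were tested, with 13 above both heterozygous libraries, 0 below and a median log2 difference of 2.78. That median was 1.09 with log2(RPM + 1) and 1.17 with the filter at 5 RPM. Over all tested genes 23.5% lay above and 15% below. Some markers, such as Ctss, Cd14 and Itgam, reached the filter through the knockout libraries alone, which favours a high count above. Lyz2, for lysozyme, was among the 4 with the smallest p, beside H2-Aa, H2-Eb1 and Ctss of class II antigen presentation. It had 795 and 91 reads in knockout libraries, against 6 and 15 reads in heterozygous libraries. The summed level of the 20 markers was 2003 and 1560 RPM in knockout libraries, against 1388 and 1722 RPM in heterozygous libraries, but Cx3cr1 and Aif1 made up most of it in every library. Without these, a choice made after the values were seen, the sum was 421 and 143 RPM in knockout libraries, against 76.2 and 47.8 RPM in heterozygous libraries. Emr1, the gene of the macrophage marker F4/80, was at 21.6 and 8.43 RPM in knockout libraries and at 13.0 and 12.5 RPM in heterozygous libraries, and did not separate them.

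Neutrophils also use the oxidase and both adaptors. Of 11 neutrophil markers 0 were over the filter, and S100a9, Ly6g, Ngp and Cxcr2 had 0 reads in all libraries. Their summed level was 2.65 and 3.37 RPM in knockout libraries, against 1.21 and 1.21 RPM in heterozygous libraries. Lymphocyte and mast cell markers, of which 4 of 12 were tested, summed to 20.6 and 13.5 RPM in knockout libraries and 13.7 and 25.0 RPM in heterozygous libraries. Cd3d alone gave 11.3 and 6.03 RPM of these sums in knockout libraries and 11.4 and 18.9 RPM in heterozygous libraries. Of the 4 tested, 2 lay above both heterozygous libraries and 1, Cd3d, below. Their median log2 difference was 0.74, and it was -0.07 without heterozygous library 1 and 1.56 without heterozygous library 2. Cd79a, Mcpt4 and Tpsb2 had 0 reads in all libraries.

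Leydig cell markers, of which 5 of 8 were tested, summed to 37.5 and 18.4 RPM in knockout libraries, against 9.35 and 4.90 RPM in heterozygous libraries. Insl3, a Leydig cell hormone gene that overlaps Jak3, had 423 and 85 reads in knockout libraries, against 4 and 22 reads in heterozygous libraries. Of the 5 tested markers, 3 lay above both heterozygous libraries and 1 below. The 1 below was Nr5a1, which overlaps 4933433P16Rik and was at 1.56 and 0.0887 RPM in knockout libraries, against 2.94 and 1.74 RPM in heterozygous libraries. The median log2 difference of the tested markers, 2.94, was 0.87 without heterozygous library 2 and 1.04 with log2(RPM + 1). Sertoli cell markers summed to 41.4 and 48.2 RPM in knockout libraries and 34.6 and 35.3 RPM in heterozygous libraries, with Amh at 0 in all. Of the 8 tested, 3 lay above both heterozygous libraries and 1 below, with a median log2 difference of -0.15. Trf, which overlaps Gm20425, was at 9.31 and 7.54 RPM in knockout libraries, against 0.520 and 0.768 RPM in heterozygous libraries (limma adjusted p = 0.273). Peritubular, endothelial and red cell markers summed to 104 and 97.4 RPM in knockout libraries and 106 and 31.4 RPM in heterozygous libraries, with Hba-a1 at 0 in all. Dcn, for decorin, alone gave 77.6 and 64.2 RPM of these sums in knockout libraries and 83.8 and 5.79 RPM in heterozygous libraries. Of the 7 tested genes of this list, 3 lay above both heterozygous libraries and 0 below, with a median log2 difference of 0.68. Myh11 was at 2.17 and 2.22 RPM in knockout libraries, against 0.346 and 0.443 RPM in heterozygous libraries (limma adjusted p = 0.596). Round spermatid markers summed to 16068 and 14127 RPM in knockout libraries and 15428 and 17908 RPM in heterozygous libraries, with 2 of 14 above both heterozygous libraries, the acrosomal protein genes Acrv1 and Spaca1, and 4 below. Ldhc, for the germ cell lactate dehydrogenase, gave most of each sum, at 10673 and 9353 RPM in knockout libraries and 10396 and 10282 RPM in heterozygous libraries. The 4 below encode proteins that package sperm DNA. Tnp2 was at 173 and 127 RPM in knockout libraries, against 393 and 582 RPM in heterozygous libraries (log2 difference -1.69, SE 0.26, limma adjusted p = 0.222). Prm1 was at 308 and 223 RPM in knockout libraries, against 529 and 931 RPM in heterozygous libraries (limma adjusted p = 0.295). Tnp1 was at 347 and 231 RPM in knockout libraries, against 418 and 800.1 RPM in heterozygous libraries. Prm2 was at 618 and 525 RPM in knockout libraries, against 624 and 1387 RPM in heterozygous libraries. The part of any of these cell types in the values of the 10 genes was not tested.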

How the data were processed

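The authors deposited log2 RPM values for 25965 genes with coordinates, not scaled to gene length. HISAT2 2.1.0, FastQC 0.11.8, Trim Galore 0.6.6 and mm10 are named in the submitters' processing notes, and 15 PCR cycles in the labels' protocols. No counting tool is named there. In each library the lowest deposited value equals 0.9 of a read. On that basis 99.7% to 100.0% of the other values were whole within 0.01 of a read, and these reads gave the totals. Counts of 2 outnumbered counts of 1 (1039 against 543 genes in heterozygous library 1), so mates may have been counted separately.

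Groups were taken from sample titles and compared on the deposited values by limma 3.58.1 (R 4.3.3). The test was two-sided, used a trend of variance with level and was adjusted by Benjamini-Hochberg over genes that reached 1 RPM in 2 or more libraries. Ratios are of mean RPM. For 1 to 3 heterozygous reads the ratio is of pooled reads with a Clopper-Pearson 95% interval. The members and the 16 lists were chosen with earlier results of these data known. Of 280 list symbols, 268 were found under the same name, 9 under an older name and 3 were not found. From each list up to 4 genes with the smallest p could be named; some results are not reported here. C3ar1, Daf2, Trem2, Fcgr3, Csf1, Il34, Spi1, Ncf1, Rac2, Msr1, Emr1, Cx3cr1, Aif1, Cd74, Cbln4, Mmrn2, Ldhc, Acrv1, Spaca1, Amh, Hba-a1 and markers with 0 reads were named for their role or value after their values were seen. The code was tested on simulated data. Alternatives were 2 scalings, log2(RPM + 1), other filters, a common lowest value, each library left out, a replicate block, no trend and voom. Tables and plots used Python 3.11.15, pandas 2.3.3, numpy 2.4.6, scipy 1.17.1 and matplotlib 3.10.9.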

Additional observations from a re-analysis of the deposited data

How the results depend on the processing

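The 10 genes kept the direction of their differences in 79 of 80 combinations of a gene and an alternative, the exception being Fcer1g without knockout library 1 (-0.41). The number with both knockout libraries above both heterozygous libraries was 8 to 10 when 1 library was left out, where only 3 libraries are ordered and the share over all tested genes was 34.9% to 43.2%, against 23.5% with all 4. It was 8 under both scalings and with a common lowest value, and 9 with 0 reads as 0 RPM or log2(RPM + 1). Their median log2 difference was 3.30 to 5.10 when 1 library was left out, 3.95 under median-ratio scaling and 3.997 under quantile scaling, and 2.09 with log2(RPM + 1), which lowers differences of genes with few reads by construction.

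The number of genes passing over the whole table was 0 under both scalings, the filter of 5 RPM, no variance trend, the common lowest value and voom. It was 1 with log2(RPM + 1), Fos, an immediate early gene. It was 180 without a filter, and 0 to 558 when 1 library was left out. Without knockout library 2 the passing genes were Cwc22, Btbd1, Lyz2, H2-Eb1 and Cd74. With the replicate block the number passing was 66. Deviations of same-numbered libraries had r = -0.076 over tested genes. With 2 libraries per group this cannot decide whether the numbers pair libraries, and the labels state no pairing. Of the list genes, 12 passed with this block. The cause of these changes was not tested. Depth limits heterozygous library 1 most: there a count of 0 allows 0.520 RPM, which is above the level of 7 of the 10 genes in the deeper heterozygous library 2. The common lowest value and 0 reads as 0 RPM were chosen after seeing the data.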
